A study of Mus musculus with 6 samples.

Results

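The 10 endothelial identity genes examined here were Cdh5, Pecam1, Esam, Icam2, Tek, Tie1, Eng, Robo4, Emcn and Egfl7, and their expression was compared between hSRY-ON and hSRY-OFF mouse hearts at postnatal day 6 (P6). Members were found by their symbol in the table of heart arrays, with every probe kept. They made up 15 of 25697 probes and 10 of 18138 gene symbols. All mice were male and of the FVB strain by their labels (FVB/N in the methods of the study), with 3 hearts in each group, and total RNA of the whole heart was hybridized to Illumina MouseRef-8 v2.0 BeadChips. The hSRY-ON mice carried the Signalox-hSRY transgene as a single copy at the H11 locus of chromosome 11, in which the CAG promoter is followed by a DsRed2 cassette between loxP sites and then by FLAG-tagged human SRY, an internal ribosome entry site and EGFP. Cre supplied through the oocyte of Ddx4-Cre mothers had removed the DsRed2 cassette in the early embryo, and the hSRY-ON mice taken for the arrays did not themselves carry Ddx4-Cre. In the methods of the study hSRY-OFF means an unrecombined Signalox-hSRY transgene, while its results describe control littermates with Ddx4-Cre alone or with no transgene, so the exact genotype of the 3 hSRY-OFF hearts is uncertain. The CAG promoter is active in most cell types, and the transgene was therefore not restricted to endothelial cells. The line derives from a single integration.

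Endothelial cells line blood vessels and, as the endocardium, the chambers of the heart. They are held together by junctions built around VE-cadherin, the product of Cdh5, with the immunoglobulin-type adhesion molecules of Pecam1, Esam and Icam2 beside it. The receptor kinase TIE2, encoded by Tek, binds the angiopoietins and works with its relative TIE1 to keep vessels stable, and endoglin, encoded by Eng, is a co-receptor for ligands of the BMP and TGF-beta family. Robo4 is the vascular member of the roundabout receptors, Emcn encodes the surface sialomucin endomucin, and Egfl7 encodes a matrix-bound factor secreted by endothelial cells. Blood cells share some of these genes, Pecam1 and Esam being also made by platelets and Eng by macrophages.

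Each array detected between 47.2% and 51.3% of its probes, and mean intensities lay between 631 in hSRY-OFF heart 3 and 939 in hSRY-OFF heart 2. Profiles of hearts of the same group correlated with r from 0.983 to 0.992, and profiles of hearts of different groups with r from 0.94 to 0.96. No probe of the table was named for the human transgene or its reporters, so the labels could not be checked through it. Levels are given as log2 intensity after background correction and quantile normalization, and a change as the log2 fold change of hSRY-ON over hSRY-OFF, with the standard error (SE) from limma. A probe was tested where its signal passed a detection p-value of 0.05 on at least 3 of the 6 arrays, and it was called where the adjusted p was below 0.05 after Benjamini-Hochberg adjustment over all 12970 tested probes. By this rule 27.5% of all tested probes were called, 13.8% higher and 13.7% lower in hSRY-ON hearts.

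The endothelial identity genes did not move together. In hSRY-ON hearts Robo4, Cdh5, Icam2, Esam and Tek fell, by 1.75-fold for Robo4 to 1.37-fold for Tek, while Eng rose 1.68-fold and Emcn rose 1.44-fold. Pecam1, Tie1 and Egfl7 did not pass the test. Of the 14 member probes tested, 7 (50%) were called, 2 higher and 5 lower. Taking each gene by its brightest probe, 7 of 10 genes (70%) were called, against 28.8% of all 9660 tested genes, and all 10 of these probes were above background on every array. The median log2 fold change over the 10 genes was -0.35, within a range from -0.81 to 0.75, and the median over all tested genes was 0. In RNA of whole hearts, fewer cells of a type and less RNA of a gene in each cell cannot be told apart.

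**Figure D1:**
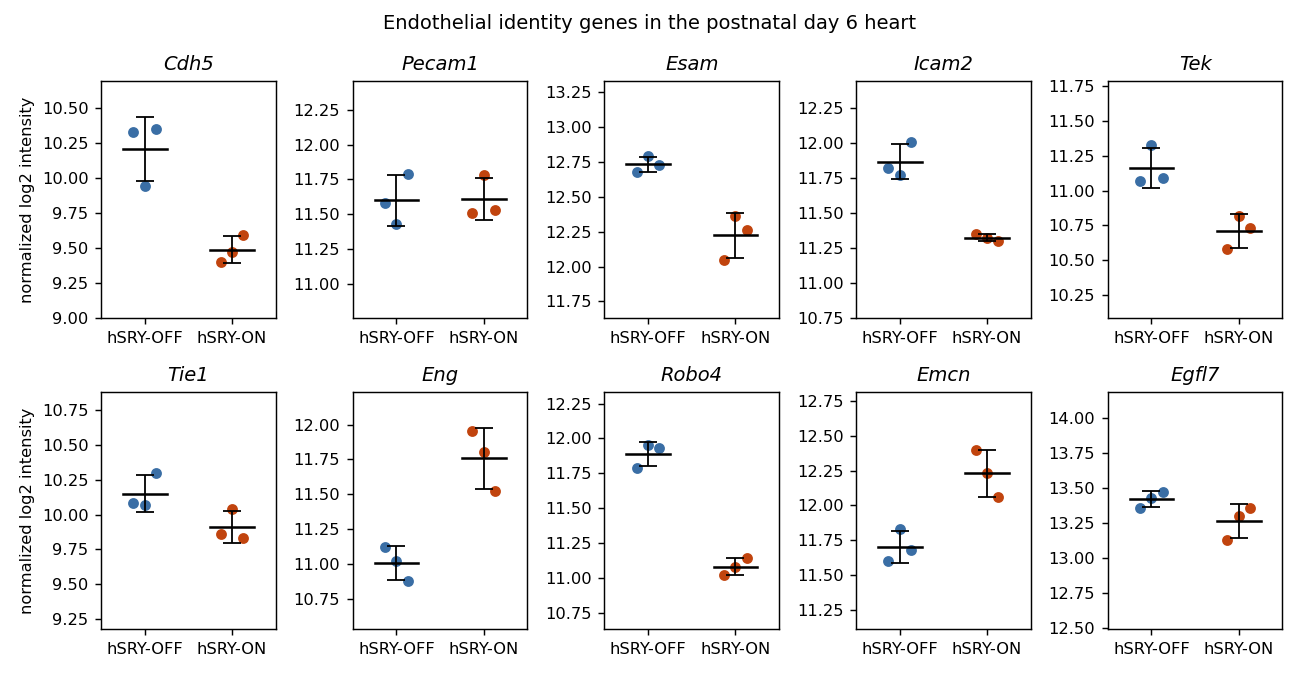
Normalized log2 intensity of the 10 endothelial identity genes (brightest probe of each gene) in 3 hSRY-OFF and 3 hSRY-ON hearts; points are hearts, horizontal bars are means and error bars are SD, and every panel spans the same log2 range. All hSRY-ON hearts lie below all hSRY-OFF hearts for Cdh5, Esam, Icam2, Tek, Tie1 and Robo4, and above them for Eng and Emcn.

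Among the junction adhesion molecules, Cdh5 (probe ILMN_2866951) had log2 levels of 10.33, 9.94 and 10.35 in the hSRY-OFF hearts and 9.40, 9.47 and 9.59 in the hSRY-ON hearts. The highest hSRY-ON heart lay below the lowest hSRY-OFF heart, and the log2 fold change was -0.72 (SE 0.15, n = 3 hearts per group, limma adjusted p = 0.0109, 95% interval -1.06 to -0.37). Icam2, whose product binds a leukocyte integrin, read 11.82, 11.77 and 12.01 in hSRY-OFF and 11.35, 11.32 and 11.30 in hSRY-ON hearts (probe ILMN_2618408). The hSRY-ON hearts were tightly grouped and all lower, with a log2 fold change of -0.54 (SE 0.12, limma adjusted p = 0.013). Esam, a component of endothelial tight junctions, read 12.68, 12.79 and 12.73 against 12.05, 12.36 and 12.26 (probe ILMN_2690839). Its log2 fold change was -0.51 (SE 0.13, limma adjusted p = 0.0226), with no overlap between the groups. Esam did not pass the test when hSRY-OFF heart 1, hSRY-OFF heart 2 or hSRY-ON heart 1 was left out (adjusted p = 0.0616, 0.0692 and 0.0808).

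Pecam1, which encodes CD31, was the member with the smallest change. Its brightest probe, ILMN_2700982, read 11.58, 11.43 and 11.79 in hSRY-OFF and 11.51, 11.78 and 11.53 in hSRY-ON hearts. The groups overlapped throughout, the log2 fold change was 0.01 (SE 0.14, limma adjusted p = 0.974), and the 95% interval of -0.33 to 0.34 still allowed a moderate change either way. The dimmer probe, ILMN_3147074, read 9.66, 9.58 and 9.38 against 9.33, 9.49 and 9.16, with a log2 fold change of -0.21 (limma adjusted p = 0.299).

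Among the receptors, Robo4 had the largest change of the members. Its probe ILMN_2942011 read 11.79, 11.95 and 11.93 in hSRY-OFF hearts and 11.02, 11.08 and 11.14 in hSRY-ON hearts. The gap between the groups was several times the spread within either of them, and the log2 fold change was -0.81 (SE 0.11, limma adjusted p = 0.00227, 95% interval -1.08 to -0.54). Among all tested probes, 14% had a larger change in either direction. The remaining Robo4 probes were near background: ILMN_1219026 was detected on 2 hSRY-OFF arrays and 1 hSRY-ON array, with a log2 fold change of 0.08 (limma adjusted p = 0.875, 95% interval -0.65 to 0.81), and ILMN_2658919 was detected on 2 hSRY-OFF arrays and 0 hSRY-ON arrays and was not tested. The Robo4 result therefore rests on 1 probe.

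Tek (probe ILMN_1220170) read 11.07, 11.33 and 11.09 in hSRY-OFF and 10.58, 10.82 and 10.73 in hSRY-ON hearts. The groups did not overlap, and the log2 fold change was -0.45 (SE 0.13, limma adjusted p = 0.039). This call was close to the threshold and was lost when any heart other than hSRY-OFF heart 3 was left out (adjusted p from 0.0539 to 0.126). It was also lost under a scaling in the manner of TCC, the tool named in the methods of the study (log2 fold change -0.41, adjusted p = 0.0615), and under a replicate block (adjusted p = 0.0553). Tie1 (probe ILMN_2928560) read 10.08, 10.07 and 10.30 against 9.86, 10.04 and 9.83, so that every hSRY-ON heart was below every hSRY-OFF heart by a narrow margin. Its log2 fold change of -0.24 (SE 0.13, 95% interval -0.54 to 0.06) did not pass the test (limma adjusted p = 0.201). Non-overlapping groups were found for 45.2% of all tested probes, and for 9 of the 14 member probes. All hSRY-ON hearts were higher for 23.6% of tested probes and 2 member probes, and lower for 21.6% of tested probes and 7 member probes.

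Eng moved the other way from most members. Its probe ILMN_1229161 read 11.12, 11.02 and 10.88 in hSRY-OFF and 11.95, 11.80 and 11.52 in hSRY-ON hearts. All hSRY-ON hearts were higher, with a log2 fold change of 0.75 (SE 0.15, limma adjusted p = 0.00877, 95% interval 0.41 to 1.09). Emcn (probe ILMN_1259365) read 11.60, 11.83 and 11.68 in hSRY-OFF and 12.40, 12.23 and 12.06 in hSRY-ON hearts, again without overlap. Its log2 fold change was 0.53 (SE 0.14, limma adjusted p = 0.0255). The Emcn call was lost when hSRY-OFF heart 1, hSRY-OFF heart 3, hSRY-ON heart 1 or hSRY-ON heart 2 was left out (adjusted p from 0.051 to 0.0941) and under a replicate block (adjusted p = 0.0576). Without normalization between the arrays, neither Eng (log2 fold change 0.66, adjusted p = 0.141) nor Emcn (0.41, adjusted p = 0.444) passed the test, and of the members that fell only Robo4 and Cdh5 did. In that setting the median of all tested probes was -0.12.

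Egfl7 was represented by 3 tested probes. The brightest, ILMN_3163288, read 13.36, 13.43 and 13.47 in hSRY-OFF and 13.13, 13.30 and 13.36 in hSRY-ON hearts, with overlap at the edge and a log2 fold change of -0.15 (SE 0.12, limma adjusted p = 0.372). The probe ILMN_1215919 read 11.54, 11.64 and 11.54 against 11.10, 11.22 and 11.39, lower in all hSRY-ON hearts, with a log2 fold change of -0.34 (SE 0.12, limma adjusted p = 0.0833). This value passed the test under 3 of the 16 alternative settings. The dim probe ILMN_2631417 had a log2 fold change of 0.05 (limma adjusted p = 0.801).

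**Figure D2:**
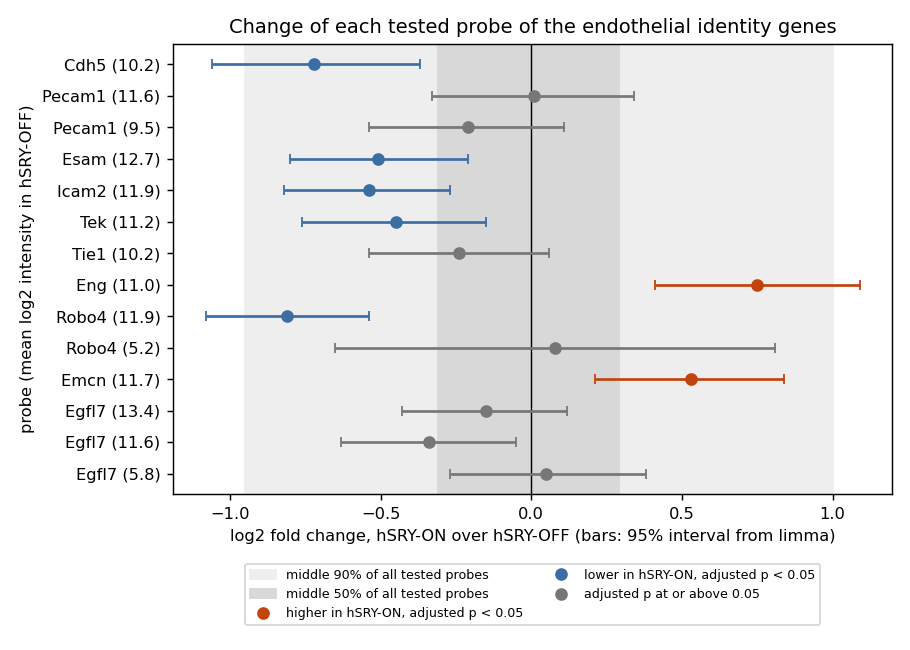
Log2 fold change of hSRY-ON over hSRY-OFF for the 14 tested probes of the endothelial identity genes, with 95% intervals from limma; the grey bands hold the middle 90% (-0.95 to 1.0) and the middle 50% (-0.31 to 0.29) of all 12970 tested probes. Called members lie on both sides of 0 and inside the middle 90% of all probes.

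All member probes lay within the middle 90% of log2 fold changes of the tested probes, which ran from -0.95 to 1.0. A larger change in either direction was seen in 16% of probes for Eng, 17.2% for Cdh5, 26.3% for Icam2, 27.4% for Emcn, 29.2% for Esam and 33.5% for Tek.

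The members were also compared with each other inside each heart, on background-corrected log2 signals taken before any normalization between arrays. These pairs were chosen after their values were seen and carry no test, and since probes differ in brightness only the shift between the groups has a meaning. The log2 signal of Eng less that of Cdh5 was 0.78, 1.08 and 0.55 in hSRY-OFF hearts and 2.58, 2.33 and 1.93 in hSRY-ON hearts, a shift of 1.47. For Emcn less Robo4 the values were -0.17, -0.11 and -0.25 against 1.37, 1.12 and 0.92, a shift of 1.32. For Tek less Tie1, the angiopoietin receptor and its partner, the shift was -0.21, with overlap between hSRY-OFF heart 3 (0.83) and hSRY-ON heart 3 (0.90).

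Some members are close neighbours in the genome. In RefSeq (GRCm38.p6), Robo4 and Esam lie on chromosome 9 with 2 protein-coding genes between them, Robo3 and Msantd2, and both fell, with a within-heart shift of -0.28 for Robo4 less Esam. Icam2 and Pecam1 lie on chromosome 11 with 2 protein-coding genes between them, Ern1 and Tex2. For Icam2 less Pecam1 the values were 0.23, 0.37 and 0.25 in hSRY-OFF and -0.15, -0.45 and -0.24 in hSRY-ON hearts, a shift of -0.56. The H11 locus of the transgene is also on chromosome 11, but its distance from Icam2 and Pecam1 was not determined, and no nearness is implied.

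When the mean of all 10 members was taken in each heart, it was 11.54, 11.55 and 11.62 in hSRY-OFF and 11.32, 11.42 and 11.33 in hSRY-ON hearts. Each member was then taken less this mean in every heart, and the shift of that difference from hSRY-OFF to hSRY-ON was read on the log2 scale. The shift was 0.96 for Eng, 0.74 for Emcn and 0.22 for Pecam1, and -0.03 and 0.06 for Tie1 and Egfl7. For Robo4, Cdh5, Icam2, Esam and Tek it was -0.60, -0.50, -0.33, -0.29 and -0.24.

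To show what sequence the members share near their starts, windows of 300 bases (250 before to 50 after the start) were taken from RefSeq promoters of GRCm38.p6, which were given for 6 of the 10 members in 8 windows. They were searched on both strands for CAGGAA and CCGGAA, cores bound by ETS factors, which drive many endothelial genes, for AACAAT, bound by the SRY and SOX family, for AGATAA, bound by GATA factors, and for TATAAA. None of these motifs contains another. CAGGAA was found in 7 of 8 member windows and in 30.6% of all 32851 windows, and CCGGAA in 0 and in 14.9%. AACAAT was found in the windows of Emcn and Tek and in 10.7% of all windows, AGATAA in that of Tek and in 11.2%, and TATAAA in none and in 13.6%. The windows of Eng and Emcn, which rose, and of Robo4 and Tek, which fell, are printed 5′ to 3′ with the CAGGAA matches of either strand in capitals (read TTCCTG on the other strand), because members that moved in opposite directions carry the same letters. In Tek the AACAAT match, on the other strand, shares bases with a CAGGAA match. A match is only a run of letters and was not measured as a binding site. Promoters of Cdh5, Esam, Icam2 and Pecam1 were not used here.
Eng promoter (chr2:32646345-32646644, + strand): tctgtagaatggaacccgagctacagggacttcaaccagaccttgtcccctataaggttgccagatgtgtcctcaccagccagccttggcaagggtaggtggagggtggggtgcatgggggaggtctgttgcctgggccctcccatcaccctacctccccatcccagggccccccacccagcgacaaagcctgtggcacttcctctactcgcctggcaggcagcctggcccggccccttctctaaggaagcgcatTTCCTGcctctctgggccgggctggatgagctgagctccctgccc
Emcn promoter (chr3:137340828-137341127, + strand): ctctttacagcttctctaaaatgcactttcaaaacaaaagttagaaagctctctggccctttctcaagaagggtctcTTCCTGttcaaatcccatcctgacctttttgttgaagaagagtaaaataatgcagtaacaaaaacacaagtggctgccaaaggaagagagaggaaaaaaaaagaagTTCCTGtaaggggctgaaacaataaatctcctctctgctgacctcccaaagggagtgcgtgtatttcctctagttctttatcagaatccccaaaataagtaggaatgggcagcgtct
Robo4 promoter (chr9:37401722-37402021, + strand): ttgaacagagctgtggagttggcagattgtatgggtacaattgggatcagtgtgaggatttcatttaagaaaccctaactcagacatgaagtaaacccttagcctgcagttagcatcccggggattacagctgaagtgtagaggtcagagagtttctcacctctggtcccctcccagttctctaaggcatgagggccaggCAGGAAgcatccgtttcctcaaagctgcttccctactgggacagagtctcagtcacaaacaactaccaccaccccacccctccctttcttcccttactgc
Tek promoter (chr4:94739039-94739338, + strand): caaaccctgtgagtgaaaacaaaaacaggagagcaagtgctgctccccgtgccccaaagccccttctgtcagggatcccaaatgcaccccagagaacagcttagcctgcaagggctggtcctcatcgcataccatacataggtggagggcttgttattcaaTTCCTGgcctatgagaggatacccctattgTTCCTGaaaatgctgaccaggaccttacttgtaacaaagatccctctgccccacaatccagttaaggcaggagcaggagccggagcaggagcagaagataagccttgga

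The signalling partners of the members were read from lists of genes, 1 probe per gene, with 28.8% of all tested genes called, 14.9% higher and 13.9% lower. For each list the called genes with the largest rise and the largest fall are named, and further genes were chosen after their values were seen. In the angiopoietin-Tie system, 6 of 10 tested genes (60%) were called, 3 higher and 3 lower, with a median log2 fold change of 0.16. Without hSRY-OFF heart 1, without hSRY-OFF heart 2 or with a replicate block, 1 gene was called higher. Angpt1, the activating ligand of TIE2, read 6.69, 6.76 and 6.87 in hSRY-OFF and 5.99, 5.6 and 6.14 in hSRY-ON hearts and fell (log2 fold change -0.87, SE 0.16, limma adjusted p = 0.00721). Angpt2, the ligand that can oppose it, read 7.71, 8.18 and 8.07 against 9.54, 9.02 and 8.71 and rose (1.10, SE 0.23, limma adjusted p = 0.0108). The ligands thus moved in opposite directions, and both calls held under all 16 alternatives. Ptprb, the phosphatase that acts on TIE2 and VE-cadherin, fell by 1.03 (SE 0.20, limma adjusted p = 0.00769). Grb14, an adaptor that binds receptor kinases including TIE2, had the largest fall of the list (-2.47, SE 0.25, limma adjusted p = 0.000716) and was detected on 2 of 3 hSRY-ON arrays.

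Among the junction partners of VE-cadherin, 5 of 13 tested genes (38.5%) were called, 3 higher and 2 lower, with a median log2 fold change of 0.13. Without normalization between arrays 1 gene was called higher, and without hSRY-OFF heart 2, hSRY-ON heart 1 or hSRY-ON heart 3 the count of lower genes was 0. Cdh2, which encodes N-cadherin, the cadherin of cardiomyocytes and of endothelial contacts with mural cells, rose by 1.07 (SE 0.22, limma adjusted p = 0.00961) and was detected on 2 of 3 hSRY-OFF arrays. Jam2, another junctional adhesion molecule, fell by 0.78 (SE 0.21, limma adjusted p = 0.0287), a call kept under 11 of 16 alternatives. The catenin genes were not called: the log2 fold change was 0.13 for Ctnnb1 (adjusted p = 0.597) and 0.30 for Ctnna1 (adjusted p = 0.0911).

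Around endoglin, 5 of 15 tested genes of the BMP and TGF-beta receptor system (33.3%) were called, all 5 higher, with a median log2 fold change of 0.51. The largest rise was that of Smad6, an inhibitory SMAD, which read 7.28, 7.12 and 7.74 in hSRY-OFF and 9.33, 9.15 and 8.73 in hSRY-ON hearts (1.69, SE 0.21, limma adjusted p = 0.00146). The receptor Tgfbr1 rose by 0.51 (SE 0.12, adjusted p = 0.0188, kept under 12 of 16 alternatives), and Tgfbr2 was not called (0.16, adjusted p = 0.42). The count of higher genes was 1 with a replicate block, 2 without normalization between arrays, without hSRY-OFF heart 1 or without hSRY-ON heart 1, and 3 without hSRY-ON heart 2 or 3. Acvrl1, the receptor with which endoglin is best known to work, had no tested probe.

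For Robo4 and its guidance partners, 4 of 14 tested genes (28.6%) were called, 3 higher and 1 lower, with a median log2 fold change of -0.03. Robo1, a roundabout receptor of many cell types, rose by 0.94 (SE 0.16, limma adjusted p = 0.00547), opposite to Robo4, and Robo2 was not called (-0.22, adjusted p = 0.358). Slit3, a ligand of roundabout receptors, rose by 1.92 (SE 0.23, limma adjusted p = 0.00116). Unc5b, a vascular receptor that binds Robo4, read 8.01, 8.50 and 8.62 against 9.62, 9.17 and 8.85 and rose by 0.84 (SE 0.24, limma adjusted p = 0.0355), a call kept under 9 of 16 alternatives. Nrp2, the gene called lower, was above background on no hSRY-ON array and passed the filter only through the hSRY-OFF hearts. Its log2 fold change of -0.94 was thus set against background, and its call adds no support. With detection required on all 6 arrays, 3 of 11 genes of the list were called higher and 0 lower. With hSRY-ON values raised to the lowest signal above background, the group means differed 1.45-fold. Over the 11 alternatives in which Nrp2 was tested, its log2 fold change ran from -1.03 to -0.27.

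**Figure D3:**
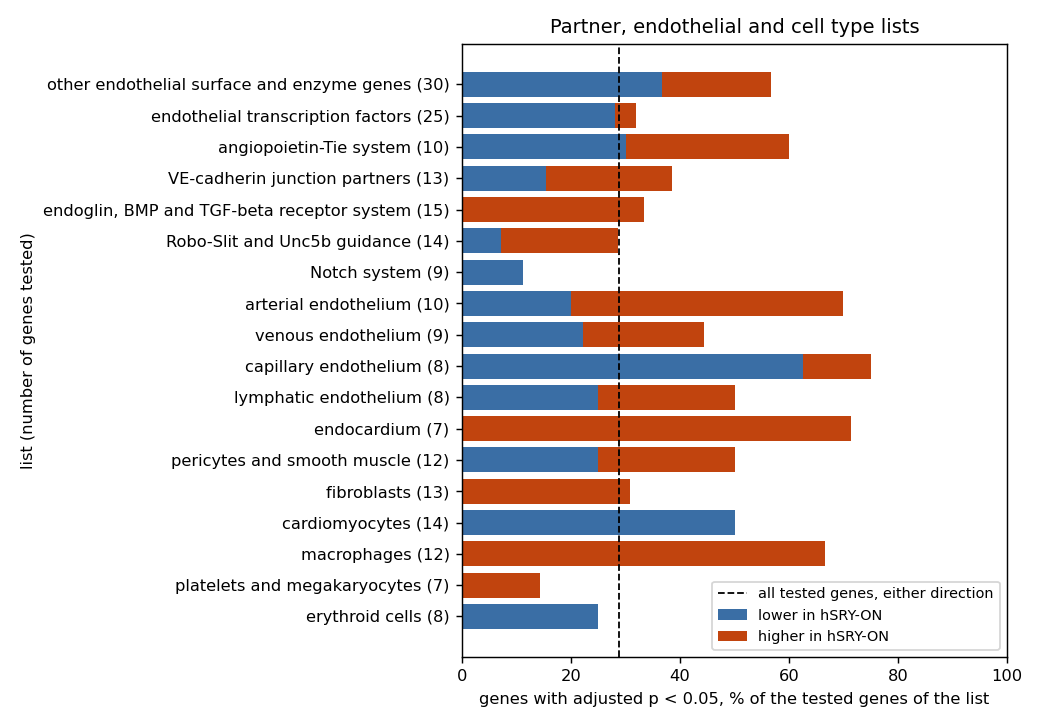
Share of the tested genes of each list that were lower (blue) or higher (orange) in hSRY-ON hearts with adjusted p below 0.05, with the number of tested genes in brackets; the dashed line marks the 28.8% of all tested genes called in either direction. All called genes of the endocardium, macrophage and endoglin lists were higher, and all called cardiomyocyte genes were lower.

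Endothelial genes beyond the 10 members were called in both directions. Of 30 other endothelial surface and enzyme genes tested, 17 (56.7%) were called, 6 higher and 11 lower, with a median log2 fold change of -0.29. Without normalization between arrays 7 were called lower. Cldn5, the claudin of endothelial tight junctions, read 11.63, 12.07 and 12.22 in hSRY-OFF and 10.20, 10.79 and 10.49 in hSRY-ON hearts and had the largest fall (-1.48, SE 0.21, limma adjusted p = 0.00213). The caveolar genes Cav1 and Cav2 fell, with log2 fold changes of -1.39 (SE 0.19, adjusted p = 0.00199) and -0.97 (SE 0.11, adjusted p = 0.00114). Ace, the angiotensin-converting enzyme, had the largest rise (2.27, SE 0.34, limma adjusted p = 0.00275), with 2 of 3 hSRY-OFF arrays above background. Plvap, which forms the diaphragms of endothelial openings and caveolae, read 9.87, 9.73 and 10.05 against 11.85, 11.65 and 11.13 and rose by 1.66 (SE 0.20, adjusted p = 0.00122). Flt1, the VEGF receptor with a tested probe in this list, was not called (0.23, adjusted p = 0.312), and Kdr had no tested probe.

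Of 25 tested endothelial transcription factors, 8 (32%) were called, 1 higher and 7 lower, with a median log2 fold change of -0.22. Without hSRY-OFF heart 1, hSRY-OFF heart 2 or hSRY-ON heart 1, 4 were called lower. Bcl6b, a repressor enriched in endothelium, fell by 1.54 (SE 0.27, limma adjusted p = 0.00571). Foxc1, a forkhead factor of vascular development, rose by 0.82 (SE 0.17, limma adjusted p = 0.0108) and was the only gene of the list to do so. The SOX factors of endothelium, which share the DNA-binding fold of SRY, all had negative values: Sox7 fell by 0.75 (SE 0.11, adjusted p = 0.00264), Sox17 fell by 0.56 (SE 0.16, adjusted p = 0.0325, kept under 11 of 16 alternatives), and Sox18 was not called (-0.51, adjusted p = 0.0518). The ETS factors Ets1 and Ets2 fell, with log2 fold changes of -0.50 and -1.05 (adjusted p = 0.0313 and 0.00901), of which the Ets1 call was kept under 9 of 16 alternatives, and Fli1 was not called (-0.09, adjusted p = 0.713). Of 9 tested genes of the Notch system, 1 was called: Nrarp, a target that feeds back on Notch, fell by 0.67 (SE 0.13, limma adjusted p = 0.00886). Without hSRY-OFF heart 3 the Notch count was 3, and without hSRY-ON heart 2 it was 2.

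The lists of endothelial subtypes, which hold none of the 10 members, were read next. Of 8 tested capillary genes, 6 (75%) were called, 5 lower and 1 higher, with a median log2 fold change of -0.77. Without hSRY-OFF heart 2, hSRY-ON heart 1 or hSRY-ON heart 3, 3 were called lower. Tcf15 and Meox2, transcription factors that act as partners in heart capillaries, fell, with log2 fold changes of -3.10 (SE 0.27, limma adjusted p = 0.000376) and -2.05 (SE 0.19, adjusted p = 0.000493). Tcf15 read 9.83, 10.07 and 10.14 in hSRY-OFF and 6.32, 6.95 and 7.46 in hSRY-ON hearts. Car4, a carbonic anhydrase of capillary surfaces, fell by 2.47 (SE 0.27, adjusted p = 0.000886) and was above background on 1 of 3 hSRY-ON arrays. Lpl, which is also made by cardiomyocytes, rose by 0.41 (SE 0.12, adjusted p = 0.0415), a call kept under 6 of 16 alternatives. Gpihbp1 and Rgcc were not called (-0.44 and -0.18, limma adjusted p = 0.0665 and 0.345). The capillary markers Cd36, Fabp4, Kdr and Btnl9 had no tested probe.

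Of 10 tested arterial genes, 7 (70%) were called, 5 higher and 2 lower, with a median log2 fold change of 0.67. Without hSRY-OFF heart 1, without hSRY-OFF heart 2 or with a replicate block, 3 were called higher. Bmx, a kinase of arterial endothelium and endocardium, read 6.95, 7.09 and 6.76 in hSRY-OFF and 9.45, 8.80 and 8.72 in hSRY-ON hearts and rose by 2.06 (SE 0.21, limma adjusted p = 0.000694). Gja5, a connexin of arterial endothelium that is also found in atrial and conduction myocytes, rose by 1.32 (SE 0.20, adjusted p = 0.00279). Mgp, Edn1 and Unc5b were the other arterial genes called higher. The arterial genes Sox17 (-0.56, limma adjusted p = 0.0325) and Gkn3 (-0.47, adjusted p = 0.0446) were called lower. Dll4 and Hey1 also had negative values but were not called (-0.63 and -0.36, limma adjusted p = 0.0806 and 0.137). Under all 16 alternatives fewer than 2 arterial genes were called lower. Of 7 tested endocardium genes, 5 (71.4%) were called, all higher, with a median of 0.88. Of the 6 genes still tested without hSRY-ON heart 1 or without hSRY-ON heart 2, 2 were called higher, with medians of 0.62 and 0.58, and without hSRY-OFF heart 1 or hSRY-ON heart 3 the count was 3. Plvap and Vwf are in that list, and Vwf, which encodes von Willebrand factor, rose by 1.32 (SE 0.24, adjusted p = 0.00658). Nrg1, the neuregulin of endocardium, was above background on no hSRY-OFF array and passed the filter only through the hSRY-ON hearts. Its log2 fold change of 2.49 was thus set against background, and its call adds no support to the count of the list. With detection required on all 6 arrays, 4 of 5 endocardium genes were called higher. With hSRY-OFF values raised to the lowest signal above background, the group means differed 4.96-fold, a figure that ignores the spread between hearts. Over the 12 alternatives in which Nrg1 was tested, its log2 fold change ran from 1.09 to 2.68.

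Venous genes were called in 4 of 9 tested (44.4%), 2 higher and 2 lower. Vwf had the largest rise, and Aplnr, the apelin receptor, had the largest fall (-1.28, SE 0.25, limma adjusted p = 0.00904). Leaving out any hSRY-OFF heart or hSRY-ON heart 1 left 1 venous gene called higher. Lymphatic genes were called in 4 of 8 tested (50%), also 2 higher and 2 lower, and without hSRY-OFF heart 2 or hSRY-ON heart 1 the count of lower genes was 0. Prox1, the lymphatic regulator that is also expressed in cardiomyocytes, rose by 0.91 (SE 0.12, limma adjusted p = 0.00192), and Flt4 was not called (-0.09, adjusted p = 0.796). Ccl21a, whose probe may also read near-identical family members, fell by 1.28 (SE 0.35, limma adjusted p = 0.0329), a call kept under 11 of 16 alternatives.

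**Figure D4:**
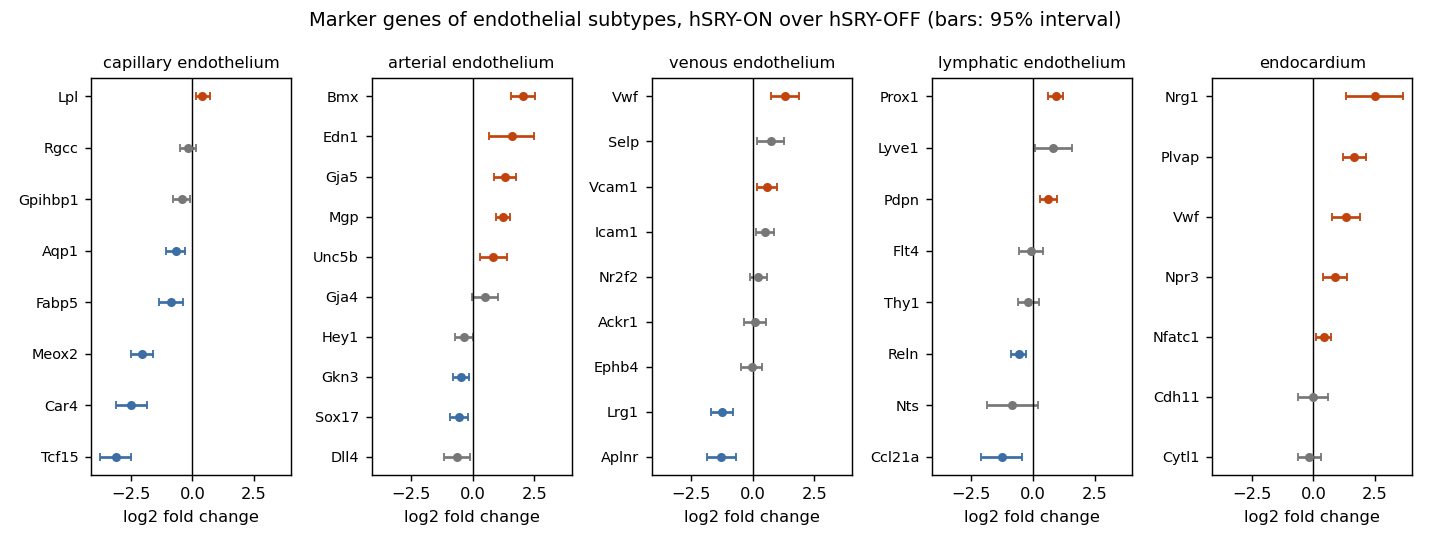
Log2 fold change of hSRY-ON over hSRY-OFF with 95% intervals for the tested marker genes of capillary, arterial, venous and lymphatic endothelium and of endocardium; orange and blue points passed an adjusted p of 0.05 (higher and lower) and grey points did not. Called capillary genes other than Lpl lie to the left of 0, down to -3.10 for Tcf15, and called endocardium genes lie to the right.

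Markers of other cell types of the heart moved in the same comparison. Macrophage genes were called higher in 8 of 12 tested (66.7%) and lower in 0, and Cd14 had the largest rise (1.30, SE 0.37, limma adjusted p = 0.0345, kept under 11 of 16 alternatives). The summed level of the list on the linear scale ran from 4600 to 5950 in the hSRY-OFF group and from 10900 to 11200 in the hSRY-ON group. Csf1r, a receptor that defines these cells, was not called by its brightest probe (0.40, adjusted p = 0.408) but was called higher by its other probe (1.30, SE 0.14, adjusted p = 0.000886). Adgre1, listed as Emr1, was not called (-0.21, adjusted p = 0.563), and Cd163 was above background on 0 hSRY-OFF and 3 hSRY-ON arrays. Cd163 thus passed the filter only through the hSRY-ON hearts. With detection required on all 6 arrays, 7 of 9 macrophage genes were called higher. Eng is also made by macrophages, and their part in its rise was not tested. Cardiomyocyte genes were called lower in 7 of 14 (50%), with a summed level of 252000 to 260000 against 219000 to 233000, and Tcap had the largest fall (-3.10, SE 0.32, adjusted p = 0.000748). That sum is weighted to the brightest probes. Of these, Myl2, Myl3 and Tnnc1 (means of 15.38, 15.39 and 15.41 in hSRY-OFF hearts) were not called, and Myh6 (15.02) was called lower. All of the tested cardiomyocyte markers other than Ryr2 were above background on every array.

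Fibroblast genes were called higher in 4 of 13 (30.8%) and lower in 0, with a median log2 fold change of 0.14. Gsn had the largest rise (1.0, SE 0.28, limma adjusted p = 0.0321, kept under 11 of 16 alternatives). Col1a1, Col1a2, Col3a1, Lum and the brightest Dcn probe were not called (0.05, 0.10, -0.60, -0.43 and -0.30). The other Dcn probe was called lower (-0.90, adjusted p = 0.0108). The summed level was 56500 to 57000 against 67300 to 68600, weighted to bright genes such as Vim (means 13.49 and 14.32). With an intensity trend, 3 fibroblast genes were called lower. Without hSRY-OFF heart 1, 2 fibroblast genes were called higher. Genes of pericytes and smooth muscle were called in 6 of 12 (50%), 3 higher and 3 lower, with a median log2 fold change of -0.06. Their summed levels were 39800 to 48200 against 51900 to 55400. Acta2, with mean log2 levels of 14.74 and 15.27, carries most of that sum, which is thus no measure of the list. Its brightest probe rose by 0.53 (limma adjusted p = 0.0165). Its dimmer probes rose by 1.48, 1.45 and 1.26 (limma adjusted p = 0.000429, 0.000645 and 0.00118). Without hSRY-ON heart 1, 1 gene of that list was called lower. Tagln rose by 1.81 (SE 0.34, limma adjusted p = 0.00766) and Smtn fell by 1.47 (SE 0.14, limma adjusted p = 0.000585). Platelet genes were called in 1 of 7 (14.3%), which was Pf4, listed as Cxcl4 (0.90, SE 0.27, adjusted p = 0.0442, kept under 10 of 16 alternatives), and their summed levels overlapped, at 292 to 901 against 399 to 794. Of the markers that define platelets, Itga2b and Gp9 were not called (-0.60 and -0.53). Erythroid genes were called lower in 2 of 8 (25%). The sum of the list, 52100 to 67100 against 53100 to 59000, is no measure of erythroid RNA here, since Hba-a1 read 15.49 on 5 of 6 arrays, the highest normalized value, and carries most of it. Both called genes were beta-globin genes whose probes may read near-identical copies, with the largest fall in Hbb-b1 (-1.29, SE 0.22, adjusted p = 0.00502). The part of these cell types in the changes of the endothelial genes was not tested.

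The values of Cdh5 over the 6 hearts were used to look for the genes with the nearest values among the 12970 tested probes. Likeness was the root mean square difference of the log2 values over the 6 hearts, each less the mean of the hSRY-OFF hearts. The closest 5 genes outside the members were Lzic, Rapgef1 and Elmo1 (0.07 each) and Syngr2 and Gbas (0.08 each), with log2 fold changes of -0.75, -0.75, -0.80, -0.69 and -0.67. Among the members, Icam2 (0.17), Robo4 (0.18) and Esam (0.23) were nearest to Cdh5, and Eng (1.06) was farthest. With the tested probes ranked by likeness to Cdh5, Icam2 was at 232, Robo4 at 290, Esam at 701 and Eng at 11826. Many probes outside the members thus lay closer to Cdh5 by this measure than any other member did. The measure depends largely on how near a log2 fold change is to that of Cdh5 (-0.72). It does not show that genes vary together between hearts. Each member named here was taken by its brightest probe.

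**Figure D5:**
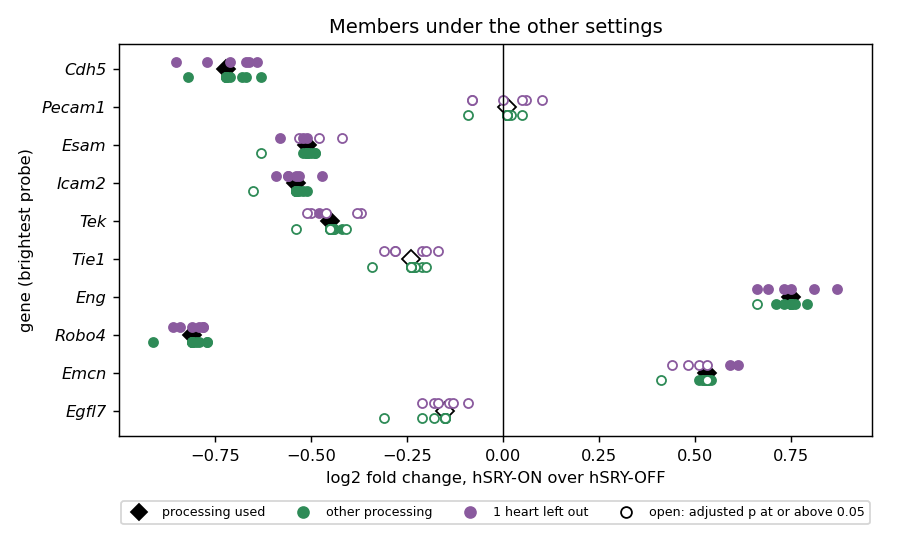
Log2 fold change of the brightest probe of each endothelial identity gene under the processing used (black diamonds), under other processing settings (green) and with 1 heart left out (purple); filled symbols passed an adjusted p of 0.05 and open symbols did not. Robo4 and Cdh5 are filled throughout, and Emcn, Esam and Tek hold a mixture of filled and open symbols on their side of 0.

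Over the 16 alternative settings, Robo4 and Cdh5 were called every time, with log2 fold changes from -0.91 to -0.77 and from -0.85 to -0.63. Eng and Icam2 were called in each setting other than the one without normalization between arrays. The 7 called members had the same sign in every setting, but most settings could not have changed it. The probe filters, the variance trend and the replicate block do not alter a log2 fold change. With groups that do not overlap, leaving out 1 heart could hardly change the sign either.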

How the data were processed

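Total RNA from whole hearts of 3 hSRY-ON and 3 hSRY-OFF male mice was hybridized to MouseRef-8 v2.0 BeadChips. The authors deposited, for each probe and array, a mean bead intensity without normalization and a detection p-value against negative-control beads; the bead software is not given in the sources used here. The methods name TCC without settings, and the submitters' processing notes name limma.

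With R 4.3.3 and limma 3.58.1, neqc corrected the background (offset 16), quantile normalized the intensities and took log2. Probes detected at p below 0.05 on at least 3 of 6 arrays were fitted with lmFit and eBayes on group alone, and p-values were adjusted by the Benjamini-Hochberg method over all tested probes. Code was tested on simulated data. Figures were drawn with Python 3.11.15, pandas 2.3.3 and matplotlib 3.10.9. With 3 arrays per group their number limits the precision, and an exact permutation test could not go below p = 0.1. For Nrg1 and Nrp2, values of the dimmer group were raised to the lowest signal above background, which gives no confidence limit. Named were every member probe, the called gene with the largest rise and fall of each of 18 lists, and the 5 genes most like Cdh5; others were chosen after their values were seen. Members and lists were chosen with earlier results of these data known. Alternatives changed background correction, normalization, filter, variance trend, replicate block or left out a heart. Replicate numbers were not used to pair the hearts in the main fit.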

Additional observations from a re-analysis of the deposited data

How the results depend on the processing

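Without normalization between arrays, 1897 probes were called in place of 3567, with 38.5% of them higher in place of 50.1%, and the members had 2 called probes, 0 higher and 2 lower, with a median log2 fold change of -0.33 in place of -0.23. With 1 heart left out, 2206 to 3669 probes were called over all tested probes, lowest without hSRY-OFF heart 1 (2206) and hSRY-ON heart 1 (2255). Member probes called were then 4 to 6, with 1 to 2 higher, 3 to 5 lower and a median of -0.31 to -0.21, and genes of the lists called were 59 to 86 in place of 93. The remaining settings left between 2842 and 4007 probes called. With a replicate block, 2842 probes were called, 1 member probe was called higher, and Emcn and Tek were the called members that no longer passed. Same-numbered hearts of both groups deviated with correlations of -0.02, 0.04 and -0.07. The labels give no litter or batch, and whether same-numbered hearts shared either was not tested. Log2 fold changes that were not called changed sign for the dim Egfl7 probe (-0.04 without normalization, -0.02 to 0.19 with 1 heart left out), for the brightest Pecam1 probe (-0.09, and -0.08 to 0.1) and for the dim tested Robo4 probe (0.00, and -0.21 to 0.31). The causes of these differences were not tested. No other member value changed its direction.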
